A study of Mus musculus with 194 samples.

Results

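The recurrent insertion sites are the genome positions at which a transposon insertion was recorded in each of 12 Cre-carrying mice, 6 labelled Syn1Cre and 6 labelled GFAPCre. A position is a chromosome, a coordinate and a strand, and the set was chosen by having at least 1 record in each of the 12 tables on chromosomes 1 to 19. It holds 23469 positions, 11739 on the plus strand and 11730 on the minus strand, of the 3916633 positions with any record in these mice, or 0.599%. Over all 47 tables of the series 5883164 positions held a record. Since presence in these 12 mice chose the set, its levels in them are given as a description, and most tests were made on mice outside the 12. Differences between the Cre lines were tested too, but presence in every mouse of both lines limits how far they can differ at a member.

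The study recorded insertions in the brain after injection of adeno-associated virus (AAV) on postnatal day 0 to 1. Syn1Cre and GFAPCre cortices came from lines that carry Cre under a synapsin 1 or a glial fibrillary acidic protein promoter, used for neurons and for astrocytes, and the labels do not say which transgenic lines they are. Syn1CreNeg and GFAPCreNeg cortices (6 mice each) are their Cre-negative counterparts, and C57bl6J cortices (2 mice) received viruses that need no Cre. Syn1Cre_SP1 cortices carry the name of the transcription factor SP1 and were labelled P10 (3 mice) or P28 (4 mice), read here as postnatal day 10 and 28. Frontflip_GFAPCre and Frontflip_GFAPCreNeg (3 mice each) received another construct, named Frontflip. Rbp4Cre_TRAP (4 mice) is whole forebrain of an Rbp4-Cre line, used for deep-layer projection neurons, processed by TRAP. BrokenHeart (3 mice) was read by inverse PCR, which its protocol describes on DNA, while its molecule label says total RNA. The other mice were read from RNA of self-reporting transposons. N2a is a mouse neuroblastoma cell line whose 3 experiments are combined in 1 table. The labels give no age for the other groups and do not describe the SP1 and Frontflip constructs. Where several mice make up a group, the labels name them as separate animals.

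In the calling card method a transposase moves a transposon into genomic DNA, either unfused or joined to a transcription factor, and each insertion marks a place where the enzyme has been. The labels do not name the transposase. The tetranucleotide TTAA is the known target of piggyBac, which favours open chromatin, promoters and enhancers. A self-reporting transposon carries a promoter that reads out into the neighbouring genome, so that its position is recovered from RNA.

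The sequence around the sites could be read where a member lay in a promoter window of the RefSeq table (GRCm38.p6, 250 bases before to 50 after a gene's start). The stretches shown are the members with the most insertion records in such windows, with a stretch that ran past its start site left out, and they show what the most recurrent targets look like. Each is given on the strand of its gene, 40 bases on either side of the target, with TTAA in capitals. The last one is the TTAA of another Dlg1 window without a record in any of the 12 mice, for contrast. Records summed over the 12 mice were 114 at Clcn3 (a chloride-proton exchanger, chr8:60954833-60954916), Polq (DNA polymerase theta, chr16:37011581-37011664) and Samd8 (a sphingolipid enzyme, chr14:21750390-21750473). They were 113 at Inpp5b (an inositol polyphosphate phosphatase, chr4:124741705-124741788) and 106 at Rps9 (a ribosomal protein, chr7:3703829-3703912). Trpm7 (an ion channel with a kinase domain, chr2:126876369-126876452) had 105 and Dlg1 (a synaptic scaffold protein, chr16:31754170-31754253) had 103, and the Dlg1 contrast site lies in chr16:31663220-31663303.
Clcn3: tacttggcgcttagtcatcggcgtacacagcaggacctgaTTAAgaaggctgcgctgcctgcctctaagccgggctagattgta
Polq: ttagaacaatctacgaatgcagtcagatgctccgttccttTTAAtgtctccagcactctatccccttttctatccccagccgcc
Samd8: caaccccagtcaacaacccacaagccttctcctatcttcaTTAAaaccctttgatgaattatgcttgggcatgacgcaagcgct
Inpp5b: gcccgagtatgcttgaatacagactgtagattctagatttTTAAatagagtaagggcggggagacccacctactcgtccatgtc
Rps9: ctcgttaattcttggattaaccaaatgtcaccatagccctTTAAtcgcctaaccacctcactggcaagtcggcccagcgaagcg
Trpm7: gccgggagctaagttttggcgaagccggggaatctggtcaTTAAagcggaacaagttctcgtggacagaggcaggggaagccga
Dlg1: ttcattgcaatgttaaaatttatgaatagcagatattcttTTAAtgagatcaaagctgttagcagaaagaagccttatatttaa
Dlg1, no record: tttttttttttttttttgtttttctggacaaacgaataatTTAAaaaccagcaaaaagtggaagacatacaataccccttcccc

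The 7 sites with records lie upstream of the annotated start, from 77 bases before it at Clcn3 to 172 at Rps9. Inserts were recorded mostly on 1 strand: the other strand of the same TTAA held 8 records at Clcn3, 2 at Polq, 0 at Samd8 and 1 at Trpm7. In each Syn1Cre mouse the Clcn3 site held between 9 and 10 records (median 10), and in each GFAPCre mouse between 8 and 10 (median 9.5). The same site held 17 records in N2a, and the Dlg1 site 0. Of the 34 other mice, 28 had a record at Clcn3 and 25 at Dlg1.

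Depth and sharing of libraries bear on all counts that follow. An insertion record is 1 line of a deposited table, and a position seen in several of the 10 parts into which a cortex was divided counts once per part, so that a cortical table holds at most 10 records per position and strand. Records per table on chromosomes 1 to 19 ranged from 432664 to 1468600 in the 12 mice, from 95188 to 582884 in the 2 Cre-negative groups, from 84941 to 564530 with SP1, from 156877 to 200629 in Frontflip_GFAPCre and from 2265 to 9377 in Frontflip_GFAPCreNeg. They ranged from 23927 to 55841 in Rbp4Cre_TRAP and from 41637 to 96176 in BrokenHeart, were 1510040 and 2133377 in C57bl6J, and 791147 in N2a. Some mice shared a sequencing pool, in which a record could be assigned to the wrong mouse. Unscaled, positions found in exactly 2 of the 12 tables numbered 7017 to 27549 for the 9 pairs of mice of 1 pool. They numbered 3243 to 17435 for 21 pairs of 1 group without a shared pool, and 2821 to 32043 for 36 pairs of different groups. Divided by the product of both mice's positions found in 1 table only, they gave a rate in arbitrary units. In the same order, this rate was 272 to 319 (median 285), 247 to 289 (median 267) and 228 to 293 (median 259). No pool held both Syn1Cre and GFAPCre mice, but GFAPCre animals 1 to 3 shared pools with Syn1CreNeg animals 1 to 3, and GFAPCre animals 4 to 6 with GFAPCreNeg animals 1, 3, 4 and 6. A record at a member in all 12 mice therefore comes from several pools, and the part of shared pools in the count was not tested.

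Members were a thin tail of the distribution of positions over mice. A single mouse accounted for 2404290 positions, 19905 positions were found in 11 of the 12 tables, and the number went up again to 23469 at 12. Records per member over the 12 mice ran from 13 to 120, with a median of 43 and quartiles of 33 and 59. Positions in 11 tables, just outside the set, had 11 to 92 records with a median of 26. Of the members, 8452 (36.0%) had at least 2 records in every mouse, 1061 (4.52%) had at least 5, and 9 had 10 in all 12. They took 8.00% to 15.7% of all records of a mouse, and within each line the share was highest in the mouse with fewest records, 15.7% in Syn1Cre animal 5 and 12.8% in GFAPCre animal 3. Of the positions found in all 11 other mice, 83.9% to 98.9% were also found in the mouse left out, against 2.15% to 9.10% of the positions found in 1 of the other 11.

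Gene ends and gene starts were more frequent near members than near other positions, and this share went up with each further mouse in which a position was found. An end here is either boundary of the gene's span. Starts are thus counted among the ends, and downstream ends were not measured alone. Of the members, 3994 (17.02%, Wilson 95% interval 16.5 to 17.5) lay no more than 1 kb from an end of a protein-coding gene, against 13.2% of positions in 11 tables, 3.27% of positions in 1 table and 4.15% of all. Within 1 kb of an annotated start site lay 15.8% (3560 of the 22497 members on the 18 chromosomes with start sites in the table), against 11.1%, 1.23% and 1.96%. Protein-coding genes held 12891 members (54.9%), and this share did not follow the same course, with 53.2% at 1 table, a peak of 64.1% at 5 to 6 tables, and 58.7% at 11. A gene of any type, long noncoding RNAs included, held 70.8% of members and 64.0% of all positions. Far from genes, over 50 kb from any protein-coding gene and outside one, lay 16.5% of members and 22.3% of all positions. Intervals cover counting error only, since neighbouring positions are not independent.

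**Figure D1:**
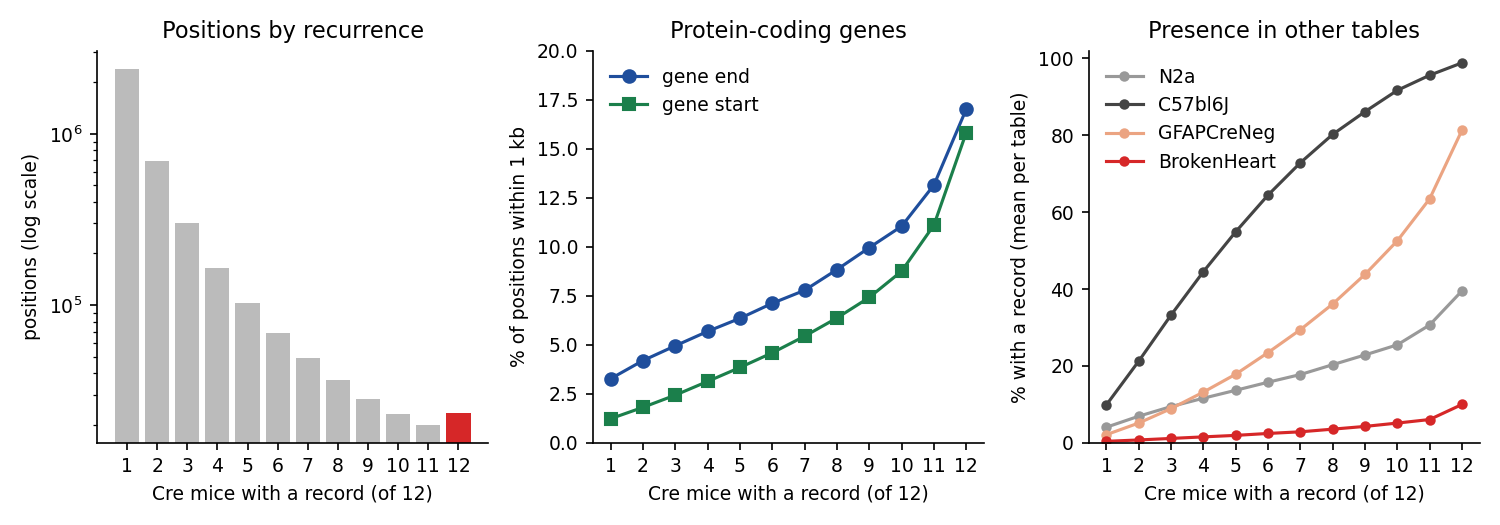
Positions by the number of the 12 Cre mice with a record (x axis in all panels). Left: number of positions on a log scale, with the 23469 members in red. Middle: percent of positions at most 1 kb from either end of a protein-coding gene's span (start included), or from an annotated start, which reach 17.02% and 15.8% at 12. Right: percent of positions with a record in tables outside the 12, as the mean over the tables of a group, which reaches 98.9% in C57bl6J, 81.3% in GFAPCreNeg, 39.5% in N2a and 9.98% in BrokenHeart at 12.

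Within promoter windows, every member position (765 of 765) lay on a TTAA. The 31396 windows held 26345 distinct TTAA sites with both flanks, of which 687 (2.61%) were members on at least 1 strand, belonging to 570 genes, and 16680 (63.3%) had no record in the 12 mice. The palindrome TTTAAA, which contains TTAA and reads the same on both strands, made up 12.8% of TTAA sites without a record, 18.98% of those found in 1 to 3 tables, 21.2% in 4 to 8, 25.3% in 9 to 11 and 26.1% of members. Put the other way, 4.34% of the 4129 TTTAAA sites were members, against 2.29% of the 22216 other TTAA sites. A TTAA was present in 52.3% of all windows and a TTTAAA in 13.002%. Of the stretches shown, Inpp5b and the Dlg1 contrast site carry TTTAAA, so the 6 letters alone did not separate a site with 113 records from 1 with none. The 20 bases flanking the TTAA had a mean GC content of 45.5% at members and 40.6% at sites without a record, and the share of members was lowest at both extremes, 1.68% of sites with a flanking GC of at most 35% and 2.00% with at least 70%. Outside the windows no sequence was read.

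Most members were hit on 1 strand far more than on the other, in the mice read from RNA. The other strand of a member site held a median of 8 records over the 12 mice (quartiles 2 and 25), against 43 on the member strand. At 8761 members (37.3%) the member strand had at least 10 times the records of the other, at 3812 (16.2%) the other strand had none, and at 2079 of the 21390 member sites both strands were members. Mice outside the 12 had the same preferred strand. At the 19311 sites with 1 member strand, the member strand took 83.9% ± 2.72 (SD, n = 31) of records at the site in the other RNA-read mice, with a range of 79.0 to 89.6, and 79.1% in N2a. In the BrokenHeart mice it took 47.9% ± 0.736 (n = 3), with a range of 47.3 to 48.7, near the 50% of an even split. The 2 sets of mice did not overlap, and the difference of -36.0 percentage points had an exact two-sided permutation p of 0.000334, the smallest that 3 against 31 mice allow. At the sites with a 10-fold preference the shares were 96.7% ± 1.08 in RNA-read mice, 91.4% in N2a and 46.4% ± 1.62 in BrokenHeart. The comparison was chosen after the strand counts had been seen. The 3 BrokenHeart mice were sequenced together in 1 pool, and the 31 others come from several groups. The permutation treats single mice as exchangeable, so its p does not separate BrokenHeart from its pool or protocol. The labels of BrokenHeart conflict on whether DNA or RNA was read, and it also differs in construct, barcoding and depth, and the part of each was not tested. Whether its strand column follows the convention of the other tables is not given in the sources used here, and a share near 50% is the same under either reading.

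**Figure D2:**
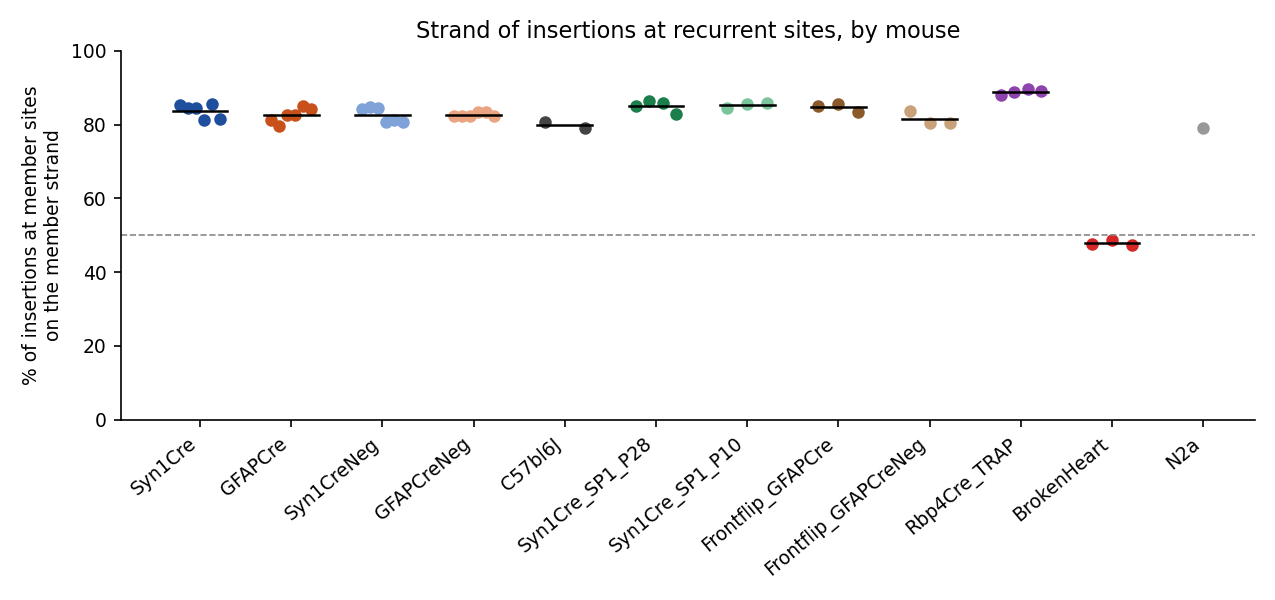
Percent of records at sites with 1 member strand that lay on that strand (y axis), 1 point per table, by group (x axis), with the dashed line at 50%. The 3 BrokenHeart mice sit between 47.3 and 48.7, below the 31 other mice outside the 12, which sit between 79.0 and 89.6.

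Within genes, the member strand was more often that of the gene. Of 9635 members inside a gene of known strand, 5927 (61.5%, Wilson 95% interval 60.5 to 62.5) lay on the gene's strand, against 60.8% of positions in 11 tables, 43.0% of positions in 1 table and 46.1% of all positions. Over the records at member sites in such genes, on either strand, the share on the gene's strand was 57.8% ± 1.02 in Syn1Cre, 57.9% ± 1.04 in GFAPCre, 53.4% ± 1.41 in Syn1CreNeg, 54.8% ± 1.68 in GFAPCreNeg, 57.9% and 58.2% in C57bl6J and 62.1% ± 1.44 in Rbp4Cre_TRAP. It was 51.0% ± 1.24 with SP1 at P28 and 48.0% ± 0.371 at P10, 57.2% ± 1.12 in Frontflip_GFAPCre, 46.1% ± 0.471 in Frontflip_GFAPCreNeg, 47.8% ± 1.55 in BrokenHeart and 46.8% in N2a. Values below 50% thus occurred in RNA-read cortices as well as in BrokenHeart and the cell line.

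Members were strongly grouped along the genome. Another member site lay within 5 kb of 71.2% of members (Wilson 95% interval 70.6 to 71.8), and the median distance from a member site to the next was 2603 bases. Joined within 5 kb, members formed 9993 clusters, of which 6220 held 1 position, while the 250 clusters of at least 10 held 6505 members (27.7%). The clusters together cover 7.40 Mb, and 1314 of them hold 50% of all members. Chromosome 13 had the highest density, 8.84 members per 1000 positions with a record, and chromosome 14 the lowest, 4.37, with 5.99 over all 19 chromosomes.

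The clusters with the most members lay at long noncoding RNAs, microRNA genes and transcription factor genes of the developing brain. The first, chr13:84741364-84764557, held 183 members in 23.2 kb, lies in the long noncoding RNA gene Gm34196 and is 424820 bases from the nearest protein-coding gene, Ccnh. The second, chr18:69559514-69602221, held 171 members inside Tcf4, a basic helix-loop-helix factor. The fourth, chr13:83713157-83750371, held 150 around the microRNA gene Mir9-2 and the noncoding RNA gene C130071C03Rik, 46078 bases from Mef2c, which encodes a neuronal MADS-box factor. The fifth, chr3:17319094-17333064, held 120 in the long noncoding RNA gene Gm30340, and the sixth, chr13:84046550-84069046, held 111 in the long noncoding RNA gene Gm17750. Zeb2, a zinc finger repressor, had 98 (chr2:45077892-45118444), and Nr2f1 with the adjoining Fam172a had 93 (chr13:78161882-78215269). The remaining clusters of the 10, with 82 members each, lay around the neuronal microRNA gene Mir124a-2 (chr3:17782140-17805797) and in the long noncoding RNA gene Gm30149, 64784 bases from Chd2 (chr7:73606530-73619967).

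These clusters differed widely between cortex and the neuroblastoma line. N2a had a record at 105 of 171 members at Tcf4 (61.4%), 71 of 82 at Gm30149 (86.6%) and 39 of 98 at Zeb2 (39.8%). It had a record at 5 of 183 at Gm34196 (2.73%), 1 of 150 at Mir9-2 (0.667%), and none at the Gm30340 and Gm17750 clusters. Per 1000 records at members, the Gm34196 cluster took 9.60 to 12.6 in Syn1Cre, 10.4 to 13.2 in GFAPCre, 13.9 to 14.4 in BrokenHeart and 0.126 in N2a. The Gm30149 cluster took 4.74 to 6.36 in Syn1Cre, 9.41 to 11.9 in BrokenHeart and 14.4 in N2a.

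By gene, members lay within 10 kb of 6325 of 20665 protein-coding genes (30.6%), at 7.16 members per 1000 positions with a record. Tcf4 had 302 members, Celf2 (an RNA-binding splicing regulator) 131, Zeb2 127, Nfia (a nuclear factor I gene of gliogenesis) 120, Zbtb20 114 and Mef2c 100. Long genes offer more positions, and per 1000 positions with a record Tcf4 had 95.4 members and Zbtb20 27.8. Of a list of 20 broad neural transcription factors, 19 had a member, with 48.8 members per 1000 positions. Pou3f3 had 42, Nr2f1 46, Bcl11a 59 and Sox11 8, and Tcf7l2 none. This list was drawn up with results of these data known, so its count is no independent evidence.

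Cell type markers were hit unevenly, and members were present at genes of both neurons and astrocytes. Of the 19 neuronal genes in the table, 15 had a member, with 27.6 per 1000 positions: 43 at Syt1, 33 at Neurod6 and 27 at Bcl11b, 1 each at Nefl and at the excitatory genes Slc17a7 and Camk2a, and 0 at the broadly neuronal Tubb3 and at the genes of inhibitory transmission Gad1, Gad2 and Slc32a1. Of 20 astrocyte genes, 13 had a member (24.2 per 1000), with 41 at Sox2, 20 at the glutamate transporter gene Slc1a3 and 16 at Slc1a2, and 0 at Gfap, Aldoc and Apoe. Of 16 transcription factors of interneurons, 7 had one (14.3 per 1000), with 34 at Satb1, 19 at Nr2f2 and 2 at Dlx1. Of 18 activity-induced genes, 13 had a member (21.8 per 1000), with 5 each at Egr4, Fosb and Nr4a2, and of 13 housekeeping genes 8 had one (25.8 per 1000). The lists of other cell types were near or below the background of 30.6% of protein-coding genes and 7.16 per 1000, or slightly above it per position: 4 of 13 oligodendrocyte lineage genes (30.8%, 6.26 per 1000, 2 members at Mbp), 1 of 10 microglial genes (5.50 per 1000, 3 at Aif1) and 2 of 10 endothelial genes (8.68 per 1000). Of 11 long noncoding and imprinted genes 5 had a member (18.8 per 1000), with 22 at Malat1 and 8 at Neat1.

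The 15 members with the most records, no 2 within 50 kb, were near saturation in every cortex of the 12. The position chr2:102620619-102620622 on the minus strand, in Pamr1, had 10 records in each Syn1Cre and each GFAPCre mouse. It had 9, 10, 10, 10, 10 and 10 in the Syn1CreNeg mice, 10 in each GFAPCreNeg and C57bl6J mouse, 10, 9, 9 and 10 with SP1 at P28, and 7, 8 and 4 at P10. BrokenHeart had 3, 3 and 2 there, Rbp4Cre_TRAP 0, 1, 1 and 1, where 2 libraries per mouse allow at most 2, and N2a 0. The position was thus found in all cortical groups and not in the cell line.

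The position chr7:73608589-73608592 on the minus strand, in Gm30149 and 66843 bases from Chd2, also had 10 records in each of the 12 mice. It had 8 to 10 in Syn1CreNeg (median 9.5), 10 in each GFAPCreNeg mouse, 9 and 10 in C57bl6J, 1, 7 and 1 in BrokenHeart and 23 of at most 30 in N2a. It is 1 of 2 members found in all 34 other mice. The position chr13:84064540-84064543 on the plus strand, in Gm17750, had 10 in each of the 12, 9 to 10 in both Cre-negative groups, 2, 4 and 2 in BrokenHeart and 0 in N2a. The position chr13:84345740-84345743 on the minus strand, in the long noncoding RNA gene Gm41011, had 10 in each of the 12 and 0 in N2a.

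Of the other 11, with 117 to 119 records each, 3 lay at the long noncoding RNA gene Mir99ahg or between it and Usp25 (chr16:77238514, chr16:77330298 and chr16:77419545, all on the minus strand), with 0, 0 and 1 records in N2a. The position chr17:25556839-25556842, 9051 bases from the glial factor gene Sox8, had 119 records in the 12 mice and 21 in N2a, and 0, 1 and 0 with SP1 at P10. The position chr18:36280369-36280372, 188 bases from Pura, which encodes a nucleic acid-binding protein, had 119 and 12. The position chr12:86895022-86895025, 10208 bases from Irf2bpl, had 118 and 15. Those near Mef2c (chr13:83713157), Ccnh (chr13:84758264), Pou3f3 (chr1:42260365) and Cypt12 (chr3:17789610) had 119, 118, 117 and 117, with 0, 0, 3 and 1 in N2a. The position near Cstad (chr2:30658406) had 119, with 18 in N2a.

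**Figure D3:**
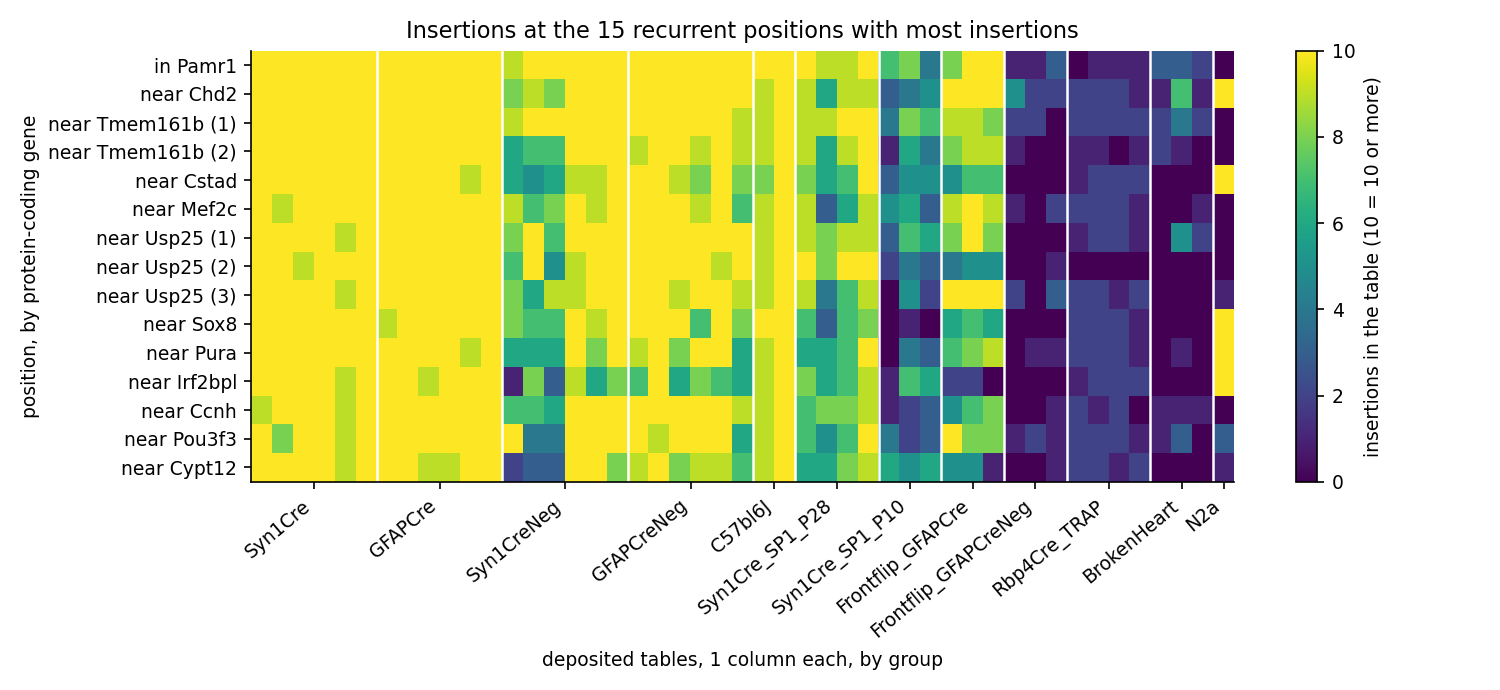
Records at the 15 members with the most records (rows, by the protein-coding gene they lie in or near) in each of the 47 tables (columns, by group), with colour from 0 to 10 or more. Cortical tables of the 12 mice are at 8 to 10 throughout, BrokenHeart is at 0 to 7, and N2a reaches 10 or more at 5 rows and is at 0 to 3 at the other 10.

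Nearly all members recurred outside the 12 mice. A record was present in at least 1 table of the group for 98.5% of members in Syn1CreNeg, 99.8% in GFAPCreNeg, 99.9% in C57bl6J, 92.4% with SP1 at P28, 57.5% at P10, 86.2% in Frontflip_GFAPCre, 53.7% in Rbp4Cre_TRAP, 23.4% in BrokenHeart and 10.8% in Frontflip_GFAPCreNeg. Of all positions of the 12 mice, 17.8%, 23.6%, 31.9%, 11.2%, 3.53%, 7.27%, 2.89%, 2.34% and 0.34% were, in the same order. A member was found in a median of 17 of the 34 other mice (range 3 to 34), and no member was absent from all of them. Wrong assignment within the pools that some Cre-negative mice shared with GFAPCre mice was not tested. The C57bl6J mice shared no pool with the 12, and their tables are the deepest. Every one of the 14 Cre-negative and C57bl6J mice had a record at 3214 members.

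The share of members found in a single mouse was highest in the deepest tables. It was 98.3% and 99.4% in the C57bl6J mice, 81.3% ± 10.2 (SD, n = 6) in GFAPCreNeg, 64.2% ± 21.6 (n = 6) in Syn1CreNeg, 60.6% ± 17.4 (n = 4) with SP1 at P28 and 33.1% ± 0.424 (n = 3) at P10. It was 58.7% ± 4.77 (n = 3) in Frontflip_GFAPCre, 4.08% ± 2.25 (n = 3) in Frontflip_GFAPCreNeg, 22.8% ± 5.68 (n = 4) in Rbp4Cre_TRAP and 9.98% ± 3.403 (n = 3) in BrokenHeart. Syn1CreNeg fell into animals 1 to 3, at 42.7% to 47.03%, and animals 4 to 6, at 80.8% to 87.4%, which were sequenced in other pools. Thinned to 20000 records each, a mouse found 9.66% to 12.9% of members in Syn1CreNeg, 9.00% to 13.3% with SP1 at P28, 5.82% to 6.65% in C57bl6J and 3.47% to 3.797% in BrokenHeart, and N2a found 4.13%. At an equal number of records the C57bl6J mice thus found fewer members than the Syn1CreNeg mice, with reads per record outside members not matched (3.24 in C57bl6J and 23.5 in Syn1CreNeg).

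As a share of all records, members took between 4.28% and 20.9% of a table outside the 12. The mean was 14.8% ± 2.10 in Syn1CreNeg, 13.3% ± 1.35 in GFAPCreNeg, 7.47% ± 0.712 in C57bl6J, 15.9% ± 3.17 with SP1 at P28, 15.5% ± 1.01 at P10, 15.9% ± 0.600 in Frontflip_GFAPCre, 19.2% ± 1.53 in Frontflip_GFAPCreNeg, 14.8% ± 1.01 in Rbp4Cre_TRAP, 4.50% ± 0.311 in BrokenHeart and 5.00% in N2a. None of the 6 comparisons of this share passed, in exact two-sided permutation tests over animals with adjustment over the 6. Syn1CreNeg exceeded GFAPCreNeg by 1.52 percentage points (permutation p = 0.149, adjusted 0.4), and SP1 at P28 exceeded P10 by 0.353 (permutation p = 0.914, adjusted 0.914). The smallest permutation p that the 4 P28 against 3 P10 mice allow is 0.0571, so this comparison could not pass. P28 animals 2, 3 and 4 also shared sequencing pools with P10 mice. SP1 at P28 and at P10 exceeded Syn1CreNeg by 1.03 and 0.674 (permutation p = 0.610 and 0.619, both adjusted 0.743). The difference was -3.30 points between Frontflip_GFAPCre and its Cre-negative group and -2.97 between BrokenHeart and C57bl6J, without overlap in either case. Their permutation p values of 0.1 and 0.2 (both adjusted 0.4) are the smallest that 3 against 3 and 3 against 2 mice allow. With records of at least 2 reads only, the Frontflip difference was -1.09 points (permutation p = 0.7). With Syn1CreNeg animals 1 to 3 only, Syn1CreNeg exceeded GFAPCreNeg by 3.36 points (permutation p = 0.0476, adjusted 0.286), and with animals 4 to 6 only the difference was -0.318.

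Weighted by reads, members took a larger share. Reads at members made up 24.6% ± 0.744 with SP1 at P28 and 20.5% ± 0.842 in Syn1CreNeg, a difference of 4.11 points with a permutation p of 0.00952, the smallest that 4 against 6 mice allow, and an adjusted p of 0.0571, which misses the threshold. In C57bl6J the share of reads was 16.96% and 17.2% against 6.96% and 7.97% of records, since a record at a member had a mean of 8.35 reads against 3.24 elsewhere. In BrokenHeart it was 4.37% to 5.08%, close to the share of records. In N2a it was 7.35%, with 19.03 reads per record at members and 12.6 elsewhere.

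**Figure D4:**
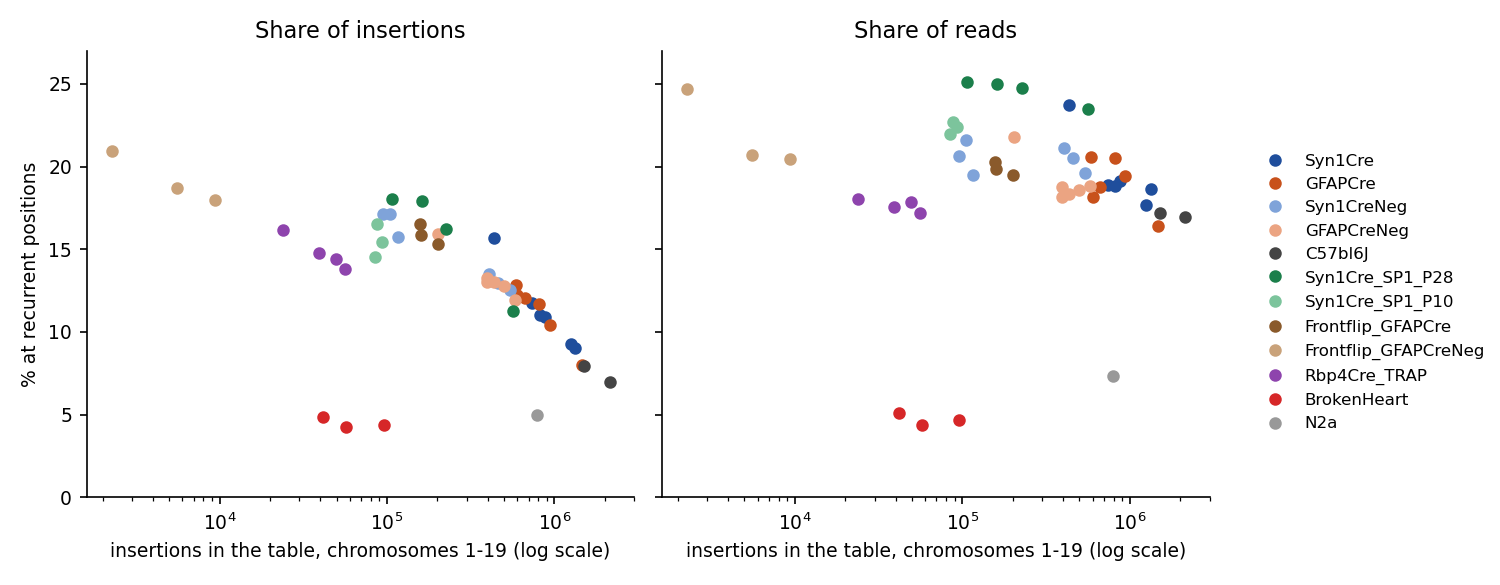
Records per table on chromosomes 1 to 19 (x axis, log scale) against the percent of records (left) and of reads (right) that lie at members (y axis), 1 point per table, coloured by group. By records, BrokenHeart (4.28% to 4.85%) and N2a (5.00%) lie lowest, and C57bl6J (6.96% and 7.97%) next. By reads, C57bl6J (16.96% and 17.2%) lies near the other RNA-read cortices.

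In the neuroblastoma line, 9278 members (39.5%) had a record, against 30.7% of positions in 11 tables, 4.07% of positions in 1 table and 6.70% of all. The share was higher among the most hit members, 45.9% of those with at least 2 records in every mouse and 54.7% of those with at least 100 in all. The member with most N2a records, 29 of at most 30, was chr11:50371778-50371781 on the minus strand, 3476 bases from Hnrnph1, which encodes an RNA-binding splicing factor. It had 7 to 10 records in Syn1Cre mice (median 9.5), 8 to 10 in GFAPCre (median 8.5), and 1, 3 and 1 in BrokenHeart. Those that followed lay in Gm30149 (27 on the plus strand at the coordinate described above), 23011 bases from Nfkbia (27), 68353 bases from Ppara (27), 363 bases from Pithd1 (26), 4982 bases from Rcc2 (25) and in Myt1l (24), a neuronal zinc finger gene. The Nfkbia position had 3 to 9 records in Syn1Cre mice and 0 to 4 in both Cre-negative groups. The cluster near Ppara, 63 members in all, had 61 (96.8%) with a record in N2a.

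Between the Cre lines, the members compared are by choice present in every mouse of both lines, so shares of members and of all positions are a description. In edgeR's quasi-likelihood test over 129455 positions with at least 12 records in the 12 mice, 62 (0.0479%) passed an adjusted p of 0.05, 38 higher (0.0294%) and 24 lower (0.0185%) in Syn1Cre, and 1 of the 23469 members did. The groups did not overlap at 185 members (0.788%), against 0.664% of all positions tested. This member, chr2:71518530-71518533 on the minus strand, lies in Metap1d, a mitochondrial methionine aminopeptidase gene, and within 10 kb of Dlx1. It had 9, 9, 8, 8, 7 and 10 records in Syn1Cre mice and 2, 3, 2, 4, 1 and 1 in GFAPCre mice. The groups did not overlap, with a log2 fold change of 1.86 (SE 0.29) and an adjusted p of 0.0101 in edgeR. Without adjustment 1002 members (4.27%) had a p under 0.05, against 7.25% of all positions tested. DESeq2 called no member. On simulated counts the test found 12% of members changed 3-fold. Those counts were drawn with more spread than the common dispersion that edgeR returned (9.77e-05). That value was the same in all 3 comparisons and is the lower limit of edgeR's search, so it is no estimate of the spread between mice. The simulated counts also lacked the limit of 10 records per mouse that real counts have. The simulation therefore does not settle which differences at single members could be detected.

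Summed over clusters, 30 of the 9993 (0.3%) passed in edgeR, 5 higher (0.05%) and 25 lower (0.25%) in Syn1Cre, and 628 had an unadjusted p under 0.05. With scaling by total records in place of TMM, edgeR called 3, 1 higher and 2 lower. Groups did not overlap in 67 clusters (0.67%), among them 3 of the higher and 2 of the lower ones. Inside Gria1, an AMPA receptor subunit gene, 9 members (chr11:57011091-57020069) had 40, 48, 48, 48, 20 and 52 records in Syn1Cre and 27, 31, 18, 25, 19 and 22 in GFAPCre, where Syn1Cre animal 5 has the fewest records of its group. The log2 fold change was 0.71 (SE 0.12), with an edgeR adjusted p of 0.00631. A pair of members 365683 bases from Ptprc (chr1:137697051-137697176) had 63 records in Syn1Cre and 23 in GFAPCre, a log2 fold change of 1.29 (SE 0.24) with an edgeR adjusted p of 0.0312. Lower in Syn1Cre were 3 members inside Prdm16 (chr4:154632977-154637063), a PR domain zinc finger gene, with 4, 5, 6, 15, 6 and 12 against 16, 17, 16, 20, 13 and 14 records and a log2 fold change of -1.12 (SE 0.20, edgeR adjusted p = 0.00921). A single member in Robo2, an axon guidance receptor gene (chr16:74400098-74400101), had 1 to 3 records in Syn1Cre and 5 to 6 in GFAPCre (log2 fold change -1.83, SE 0.34, edgeR adjusted p = 0.0398). None of the 10 clusters with the most members passed, with log2 fold changes between -0.23 and 0.17 and edgeR adjusted p values of at least 0.908.

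The calls between the Cre lines depended on which mice were used. Without 1 mouse, edgeR called 3 to 138 clusters, with animals 1 to 3 of each line it called 143 (10 higher), and with animals 4 to 6 none. The Cre lines were sequenced in separate pools, so that line and pool cannot be told apart.

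Between the Cre-negative groups, no position passed in edgeR: 0 of 41097 tested and 0 of the 17664 members tested, with 882 members (4.99%) at an unadjusted p under 0.05 and none called by DESeq2. The groups did not overlap at 0.521% of the positions tested and 0.532% of the members tested. Of 7639 clusters tested, 3 (0.0393%) passed, 1 higher (0.0131%) and 2 lower (0.0262%) in Syn1CreNeg, with 407 at an unadjusted p under 0.05 and 33 (0.432%) without overlap. The Gm30340 cluster, the fifth by members, was lower, with a log2 fold change of -0.60 (SE 0.13, edgeR adjusted p = 0.00761). By total records it was -0.41 (edgeR adjusted p = 0.924), and it passed in 8 of the 12 fits without 1 mouse. Without 1 mouse, edgeR called 1 to 12 clusters. No pool held both Syn1CreNeg and GFAPCreNeg mice, so that group and pool cannot be told apart here either.

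Mice with SP1 at P28 differed from Syn1CreNeg at many members. These groups differ in Cre, in the SP1 construct and in sequencing pools, which cannot be told apart. Of 26061 positions with at least 12 records in the 10 mice, edgeR called 5772 (22.1%), 5227 higher (20.1%) and 545 lower (2.09%). Of the 12682 members among them, 1322 were higher and 295 lower, so 12.8% were called, below the share of all positions tested, and 10.7% did not overlap between the groups, against 17.4% of all positions tested. The minimum of 12 records runs over both groups, so a position recorded in 1 group alone passes it only where it is high, and these counts are a description. Members were also chosen by presence in 12 mice not labelled SP1, so a position recorded only with SP1 could not be a member. The lower shares at members are therefore no independent result. The median log2 fold change was -0.14 at members tested (quartiles -0.73 and 0.63) and 0.02 at all positions tested.

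Some members were recorded in every SP1 mouse and in no Syn1CreNeg mouse. The members named here have 0 records in 1 group, so they passed the minimum of 12 only through the other. They were picked for extreme fold changes, and their values are a description. The site 2821 bases from Atp5g2, a mitochondrial ATP synthase subunit gene (chr15:102673868), had 7, 5, 7 and 10 records with SP1 and 0 in all 6 Syn1CreNeg mice, at least 15.8-fold higher against a floor of 3 records over the group. The site 152 bases from Kdm3a, a histone demethylase gene (chr6:71633142), had 6, 6, 7 and 9 against 0, at least 15.2-fold higher. The site in Dnm3, a dynamin gene (chr1:162476640), had 6, 3, 7 and 9 against 0, at least 13.6-fold higher, and the site near Raly (chr2:154785874) 4, 1, 3 and 7 against 0, at least 8.15-fold higher. Others were recorded in every Syn1CreNeg mouse and at 0 in all 4 SP1 mice. The site in Gm17750 (chr13:84058174) had 2, 1, 3, 5, 2 and 2 records in Syn1CreNeg, at least 3.07-fold lower with SP1, and the site 10120 bases from Nfib (chr4:82516871) had 4, 1, 1, 3, 1 and 3.

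By cluster, 1335 of 6242 (21.4%) passed in edgeR, 904 higher (14.5%) and 431 lower (6.9%), and 952 (15.3%) did not overlap between the groups. With scaling by total records it called 907 higher and 168 lower. Either end of a protein-coding gene's span, start included, lay within 1 kb of 61.6% of the clusters higher with SP1. The share was 34.4% of all clusters tested and 16.2% of the lower ones. For annotated start sites the shares were 55.02%, 31.3% and 14.1%. Higher clusters held a median of 2 members and lower ones 5. Taken by position, the 1881 clusters no more than 1 kb from a start site had a median log2 fold change of 0.46 (quartiles -0.19 and 1.22), with 482 higher (25.6%) and 59 lower (3.14%). The 4134 others had a median of -0.22 (quartiles -0.82 and 0.44), with 394 higher (9.53%) and 358 lower (8.66%). Of the 250 clusters with at least 10 members, 14 were higher and 117 lower (46.8%), with a median of -0.48. Such clusters hold more records, so smaller differences can pass there. Their share of calls was not matched for records or repeated with scaling by total records. The single member near B4galt1, a galactosyltransferase gene (chr4:40854395), had 8, 5, 6 and 10 records with SP1 and 1 in all Syn1CreNeg mice together. Clusters too had to hold at least 12 records over both groups, and those with 0 in 1 group passed only through the other. The values of such clusters, picked for extreme fold changes, are a description. Single members near Kcnn3, a potassium channel gene, and in Uggt2 had 13 records each against 0, at least 7.07-fold higher. Lower were pairs of members in Sox5 (0 against 20 records, at least 4.09-fold lower), Tafa1 (0 against 16, at least 3.27-fold lower) and Ndrg3 (0 against 13, at least 2.66-fold lower), and a member near Pcdh1 (0 against 13, at least 2.66-fold lower).

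Of 9 clusters among the 10 with the most members, 5 fell with SP1 and 4 did not pass, relative to TMM scaling. The clusters at Gm34196 fell by 0.83 on the log2 scale (SE 0.16, edgeR adjusted p = 1.23e-05), at Gm17750 by 0.85 (0.16, 4.66e-06) and at Tcf4 by 0.79 (0.16, 2.44e-05). Smaller falls were by 0.56 at Gm30340 (SE 0.16, edgeR adjusted p = 0.00478) and 0.42 at Gm30149 (0.16, 0.0411). The clusters at Zeb2 (-0.36, adjusted p = 0.0828), Mir124a-2 (-0.35, 0.111), Nr2f1 (-0.28, 0.204) and Mir9-2 (-0.08, 0.760) did not pass in edgeR. These calls rest on the scaling: by total records the Gm17750 cluster alone among the 9 passed (log2 fold change -0.75, edgeR adjusted p = 0.0417), with -0.71 (0.0590) at Gm34196 and -0.66 (0.0821) at Tcf4. The 5 kept their direction, and the Gm30149 cluster kept its call in 3 of the 10 fits without 1 mouse.

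**Figure D5:**
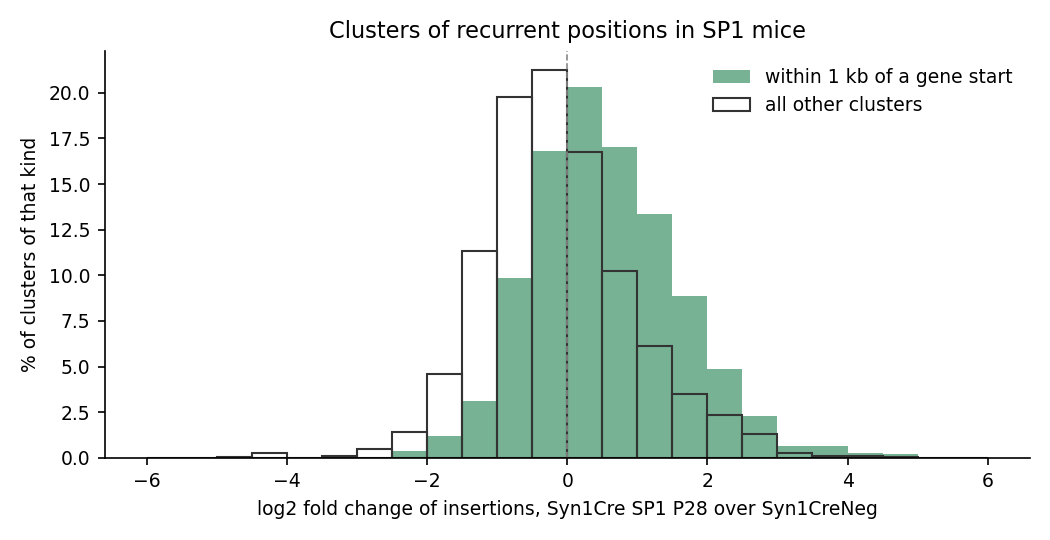
Distribution of the log2 fold change of records, SP1 at P28 over Syn1CreNeg (x axis, in bins 0.5 wide), over clusters of members on the chromosomes with start sites in the table, as percent of the clusters of each kind (y axis). Green bars are the 1881 clusters no more than 1 kb from a start site, with a median of 0.46, and outlined bars the 4134 others, with a median of -0.22.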

How the data were processed

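Insertions were recorded by calling cards in 46 mice of 11 groups and in N2a cells, listed as 194 samples. Per the labels' protocols, AAV was given at postnatal day 0 to 1. The authors deposited 47 tables with 1 line per insertion (chromosome, position, strand, barcode) and its read count, a raw count judged from its values, which are whole numbers of at least 1. Per the labels' protocols, self-reporting transposons were read from RNA in 10 parts per cortex, and inverse PCR on DNA was used for BrokenHeart, whose molecule label is total RNA. The submitters' processing notes name mm10, Novoalign and Bowtie2, without a role or version. Counting filters are not given in the sources used here. BrokenHeart starts were moved by -1, after which 53.7% to 55.4% of its records lay on a position of the 12 mice, against at most 0.464% at other offsets from -3 to 3. Coordinates are 1-based.

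Genes came from RefSeq tables of GRCm38.p6, given as spans, with start sites and strands from the promoter table for 17274 of 21631 protein-coding genes of chromosomes 1 to 19 and X. That table has no entry used here on chromosome 18. No genome sequence was used. Members within 5 kb were joined into clusters. Shares were compared by exact two-sided permutation tests over animals, Benjamini-Hochberg adjusted over 6. Records per position (at least 12 in all) and, separately, per cluster went into edgeR 4.0.16 (R 4.3.3) and its quasi-likelihood test, with TMM scaling and only the groups compared, with DESeq2 1.42.0 as an alternative; standard errors derive from the test's F. Adjusted p under 0.05 was the threshold, and p-values measure the spread between animals. On simulated counts edgeR found 12%, 4% and 0% of members changed 3-fold (Syn1Cre against GFAPCre, Syn1CreNeg against GFAPCreNeg, SP1 against Syn1CreNeg), and 41%, 10% and 13% of clusters changed 2-fold. No call was false, but with 13, 4 and 0 calls on positions the rate of false calls cannot be judged there. The simulated spread was set in advance and records had no limit per mouse, so these shares do not settle what the tests could detect.

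Named positions were the 15 members with most records, the 10 with most in N2a, the 10 largest clusters and, per edgeR comparison, those with the highest and lowest log2 fold change past the threshold whose animals did not overlap (8 and 8, or 4 and 4), none within 50 kb of another. A few of these positions, clusters and listed genes are not reported here. The members and gene lists were chosen with earlier results of these data known. The cluster tests, the shares of reads, the strand comparison and the choice of sequences shown were added after results had been seen. Replicate numbers did not pair animals: correlations of same-numbered animals' deviations ran from -0.120 to 0.0605. Alternatives were other scaling, count minimums, read minimums, definitions of a member, distances, and leaving out each animal.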

Additional observations from a re-analysis of the deposited data

Results flagged for a closer look

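Single mice stood apart from their group in 4 of the 22 combinations of group and measure examined, where chance gives about 1 in 20. In Syn1Cre, animal 5 had 23.7% of its reads at members, against 17.7% to 19.1% in the other 5 mice, and it had the fewest records of its group. In GFAPCreNeg, animal 6 stood apart in 3 related measures: 15.9% of its records lay at members against 11.96% to 13.2% in the others, 21.8% of its reads against 18.2% to 18.8%, and it had a record at 61.5% of members against 81.2% to 90.5%. It had the fewest records of its group, 202904.

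Chromosome X, which the choice of members left out, held 319 further positions with a record in all 12 Cre mice, and with them the set would have 23788 positions.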

How the results depend on the processing

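Of 87 values of the summary results under alternatives other than leaving out a mouse, 60 kept their direction and their side of the threshold, or for counts stayed within 1.5 times. Of 132 values without 1 mouse, 116 did. At least 2 records in each table left 8452 members, and 11 of 12 tables gave 43374. The share near gene ends was 33.9% within 5 kb, 23.9% with genes of any type, 22.2% with 1 position per cluster and 19.7% with at least 2 records in each table. Members clustered at 61.8% within 1 kb and 87.4% within 50 kb. N2a held 44.3% of members with strand ignored and 37.3% with at least 2 reads per record.

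The difference in the share at members between Syn1CreNeg and GFAPCreNeg was -0.318 points with Syn1CreNeg animals 4 to 6 only and 3.36 with animals 1 to 3 only (permutation p = 0.0476, adjusted 0.286). Over distinct positions it was -1.83 between P28 and P10 with SP1, and 1.98 between BrokenHeart and C57bl6J. Without 1 mouse, P28 minus P10 ran from -0.375 to 1.88. The Frontflip difference was -1.09 with at least 2 reads per record. The cause was not tested, and none of these passed after adjustment.

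Between the Cre lines, edgeR called 2 members with a minimum of 24 records, 5 with at least 2 reads per record, 3 with animals 1 to 3, 0 with animals 4 to 6 and 1 to 2 without 1 mouse. Positions of any kind called were, in the same order, 80 of 43031, 67 of 99779, 250 of 129455, 0 of 129455, and 26 to 143 of 129455. DESeq2 called 0. By cluster the counts were 3 with scaling by total records, 143 with animals 1 to 3, 0 with animals 4 to 6, and 3 to 138 without 1 mouse, the lowest without GFAPCre animal 4 and the highest without Syn1Cre animal 5. The Metap1d site lost its call with animals 1 to 3, with animals 4 to 6 and in DESeq2. The Ptprc and Robo2 clusters lost theirs in 12 of 16 alternatives each, and the Prdm16 and Gria1 clusters in 5 and 2. Between the Cre-negative groups, clusters called were 1 with scaling by total records and 1 to 12 without 1 mouse. With SP1, 1050 members were called with a minimum of 24 records, where 2001 of 6947 positions of any kind were. DESeq2 called 1026 members and 4300 of 26061 positions. Scaling by total records moved the median log2 fold change of all positions from -0.17 to 0.12 between the Cre-negative groups, and that of all clusters from -0.02 to 0.09 with SP1. None of the sites and clusters named for passing changed direction in the alternatives run.

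With the replicate number as a block, though numbers do not pair these mice, edgeR called 713 members and 635 clusters with SP1, and 36 and 2 clusters between the Cre lines and between the Cre-negative groups. Of all 26061 positions tested with SP1, 3266 were called. The Pcdh1, Ndrg3, Gm30340 and Gm30149 clusters lost their calls with SP1. Pairing by number gave share differences of 1.52 (Syn1CreNeg minus GFAPCreNeg), 1.88 (P28 minus P10), 0.224 and -1.16 (P28 and P10 minus Syn1CreNeg), -3.30 (Frontflip) and -3.15 (BrokenHeart minus C57bl6J) points. None passed, with exact two-sided sign-flip p values from 0.25 to 1. The smallest p that the pairs allow was 0.03125 for Syn1CreNeg minus GFAPCreNeg. For the other differences it was 0.125 to 0.5, so they could not pass whatever the values.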
